A study of Mus musculus with 6 samples.

Results

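A set of 431 windows of 1 kb on the mouse autosomes had less CpG methylation in every Tet2/3 DKO sample than in every wild-type (WT) sample. They were chosen from 774732 tested windows, those with 3 or more CpGs and 20 or more reads in each of the 6 samples, out of 2335885 autosomal windows with a listed CpG. A window was taken when its highest DKO level lay at least 10 percentage points below its lowest WT level. A level is the share of read calls at CpGs that were called methylated, and a read is counted at each CpG it covers. The measured levels themselves chose the windows, so their size and direction are given as a description with no test. The set was 0.0556% of the tested windows, and the mirrored rule, lowest DKO level at least 10 points above highest WT level, took 7551 windows, or 0.975%.

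Tet2 and Tet3 are enzymes that oxidise 5-methylcytosine to 5-hydroxymethylcytosine and further products, steps on the way to unmethylated cytosine. Loss of these enzymes is therefore known mostly for gains of methylation at enhancers and other regulatory DNA, and windows that go the other way are the less familiar side of such data. Bisulfite sequencing reads 5-methylcytosine and 5-hydroxymethylcytosine alike, so a level is the sum of both. LSK cells are bone marrow cells without lineage markers that carry both Sca-1 and c-Kit. They include the blood stem cells and early progenitors, and were sorted here by flow cytometry after magnetic depletion of lineage-positive cells. Whole-genome bisulfite sequencing was done on 3 samples of WT LSK cells and 3 of Tet2/3 DKO LSK cells, labelled as biological replicates. The sources used here do not give the strain, the age, the alleles and how they were deleted, or whether a sample was 1 animal or a pool. P-values therefore measure the spread between these samples.

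The windows are placed on mm9, for which no genome sequence was used here. To find genes near them, RefSeq's promoters of 300 bases (GRCm38.p6, 250 bases before to 50 after the start site) were placed on the deposited table by the spacing of their CpGs. Of 31396 autosomal promoters, 21695 had at least 4 CpGs, and 21125 of these were placed at a single position where every CpG of the promoter, and no other, was listed. Of these, 5 are printed because the results turn on them, 5′ to 3′ on the strand of the gene, with each CpG in capitals. Zdbf2 (plus strand) is the protein-coding gene whose start lies closest to the first-ranked of the persisting windows, while Wdr75, Slc5a1, Mchr1 and Tafa2 (all plus strand) lie partly or wholly within windows of the set.
Zdbf2: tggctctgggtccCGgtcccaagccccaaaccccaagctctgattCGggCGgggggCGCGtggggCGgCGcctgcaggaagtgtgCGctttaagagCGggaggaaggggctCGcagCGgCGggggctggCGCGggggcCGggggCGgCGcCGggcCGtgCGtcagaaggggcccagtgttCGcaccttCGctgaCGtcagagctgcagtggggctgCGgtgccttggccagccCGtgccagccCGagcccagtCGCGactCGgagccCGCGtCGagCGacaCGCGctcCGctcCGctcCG
Wdr75: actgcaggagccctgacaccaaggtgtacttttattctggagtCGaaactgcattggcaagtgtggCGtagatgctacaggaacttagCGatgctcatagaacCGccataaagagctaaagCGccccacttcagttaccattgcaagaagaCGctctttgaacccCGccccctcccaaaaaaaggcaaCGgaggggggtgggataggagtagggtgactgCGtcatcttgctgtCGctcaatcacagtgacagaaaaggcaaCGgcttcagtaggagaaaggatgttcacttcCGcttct
Slc5a1: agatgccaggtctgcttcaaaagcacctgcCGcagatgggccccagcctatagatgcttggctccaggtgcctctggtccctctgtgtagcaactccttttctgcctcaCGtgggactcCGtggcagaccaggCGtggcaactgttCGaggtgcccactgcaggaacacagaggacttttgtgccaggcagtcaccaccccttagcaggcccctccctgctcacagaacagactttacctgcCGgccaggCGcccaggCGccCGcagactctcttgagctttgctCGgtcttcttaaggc
Mchr1: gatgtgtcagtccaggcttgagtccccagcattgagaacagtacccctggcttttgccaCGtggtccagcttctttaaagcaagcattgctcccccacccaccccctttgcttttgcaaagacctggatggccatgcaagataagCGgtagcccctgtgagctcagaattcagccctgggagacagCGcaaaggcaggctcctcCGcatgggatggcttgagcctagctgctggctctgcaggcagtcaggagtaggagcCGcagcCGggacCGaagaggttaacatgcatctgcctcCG
Tafa2: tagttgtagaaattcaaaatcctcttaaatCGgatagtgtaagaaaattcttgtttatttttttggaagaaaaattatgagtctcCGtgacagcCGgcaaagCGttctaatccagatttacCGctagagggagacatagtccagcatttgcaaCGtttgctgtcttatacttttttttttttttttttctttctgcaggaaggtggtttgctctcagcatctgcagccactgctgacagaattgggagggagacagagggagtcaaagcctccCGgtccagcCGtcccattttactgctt

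The WT samples held 70917633, 72747248 and 70815948 read calls, and the DKO samples 101957758, 111763872 and 83560585, or 3.46 to 5.46 reads per CpG. The deletions were visible as runs of windows without DKO reads. Over chromosome 3 at 133132001 to 133136000, which lies within the length of Tet2, the WT samples had 109 to 165 reads and each DKO sample had 0. Over chromosome 6 at 83352001 to 83355000, within the length of Tet3, they had 169 to 231 reads, and the DKO samples 14, 0 and 0. All other tested windows averaged 83.5% ± 0.0925 for the WT and 85.2% ± 0.297 for the DKO samples (SD, n = 3), so the windows described here run against a small rise.

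Most windows of the set were highly methylated in WT and partly methylated in DKO. The median level was 90.5%, 90.7% and 90.5% in WT replicates 1 to 3, and 69.2%, 70.6% and 71.4% in DKO replicates 1 to 3. Over all tested windows the medians were 91.0%, 90.9% and 91.2% in WT and 91.7%, 91.8% and 92.3% in DKO. The high WT level of the set is thus that of tested windows in general. The difference between group means had a median of -19.6 points and ran from -37.8 to -11.5 points. By the WT mean, 145 windows were at 95% or more (33.6%, against 22.7% of tested windows) and 164 at 80 to 95% (38.1% against 57.5%). A further 91 were at 50 to 80% (21.1% against 11.7%), 31 at 10 to 50% (7.19% against 5.08%) and 0 below 10% (against 2.99%). The rule can take no window below 10%, since no DKO level can lie 10 points under such a WT level. The windows of the mirrored rule had another starting point, with WT medians of 51.1% to 51.9% and DKO medians of 79.7% to 81.0%, and 3735 of them lay at 50 to 80% in WT. The mirrored rule can take no window with a WT mean of 95% or more, so its starting point is partly set by the rule. In 51 windows of the set every WT read was methylated in all 3 WT samples, as it was in 6325 of the 774732 tested windows.

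The gap between the lowest WT and the highest DKO level had a median of 11.6 points, close to the limit of 10 points. It was 10 to 12 points in 236 windows, 12 to 15 points in 126, 15 to 20 points in 60 and 20 points or more in 9, while 521 tested windows fell just short with 8 to 10 points. Just inside the limit, the window on chromosome 2 at 31045001 to 31046000 had a lowest WT level of 100% and a highest DKO level of 90%. Just outside, the window on chromosome 7 at 56437001 to 56438000 had 93.0% and 83.0%, a gap of 9.99 points. Each sample narrowed the set. Without WT replicates 1, 2 and 3 the rule took 1723, 1802 and 1677 windows, and without DKO replicates 1, 2 and 3 it took 1813, 1989 and 2663. The mirrored rule took 16100, 16355 and 16134, and 12562, 12249 and 13342, windows in the same settings.

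Windows of the set were CpG-poor. Their median was 10 CpGs per kb against 12 over all tested windows and 13 under the mirrored rule. Windows with 3 to 5 CpGs met the rule at 2.42 per 1000 tested (23 windows) and those with 6 to 10 at 0.855 per 1000 (227 windows). The rate was 0.351 per 1000 at 11 to 20 CpGs, 0.460 at 21 to 40 and 0.215 above 40. Under the mirrored rule the rate was lowest among the first 4 classes at 3 to 5 CpGs, with 5.78 per 1000, and was 7.96, 11.1 and 11.2 in the next 3 classes and 1.45 above 40.

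The set also lay among the thinly read windows. The lowest read number of any sample had a median of 25 in the set and 31 over all tested windows, and 198 of the 431 windows had only 20 to 24 reads in their least covered sample. The rule was met by 1.02 per 1000 windows at 20 to 24 reads, 0.634 at 25 to 29, 0.377 at 30 to 39, 0.296 at 40 to 59 and 0.244 at 60 or more. The mirrored rule went the other way, from 7.41 per 1000 at 20 to 24 reads to 12.4 at 40 to 59 and 11.8 at 60 or more. Lower windows thus became rarer, and higher windows more frequent, as reads increased up to 59. Read number and CpG density are related, since a read counts at each CpG it covers, and the part of either in the set was not tested.

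Repeating the rule with a fixed set of CpGs kept few of the windows. For this only CpGs read in all 6 samples were used, each with the same weight, and a window again needed 3 CpGs and 20 reads in every sample. Of the 431 windows, 245 could not be repeated, 21 with fewer than 3 shared CpGs and 224 with fewer than 20 reads on them, so 186 (43.2%) could, against 64.3% of all tested windows. Of the 186, 30 (16.1%) met the rule again. In 104 the groups were still apart, in 82 they overlapped, and in 170 the DKO mean stayed below the WT mean. The median difference over the 186 windows went from -18.7 to -12.7 points. Under the mirrored rule 5338 of 7551 windows could be repeated and 2611 of them (48.9%) met it again, with a median difference of 25.7 points that became 22.5. Both shares describe windows chosen by the same contrast. Among all 498496 windows that could be measured this way, 304 (0.0610%) were lower and 5943 (1.19%) higher by the rule. The 30 persisting windows are among these 304, and the rest of the 304 were not in the set.

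**Figure D1:**
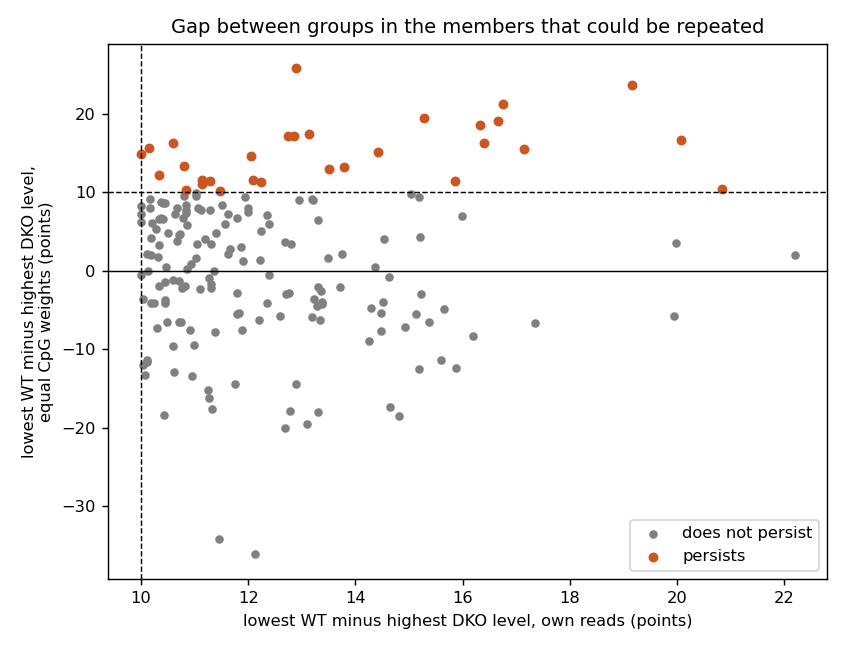
Gap between the lowest WT and the highest DKO level in the 186 windows of the set that could be repeated, with each sample's own reads (x axis, points) and with equal CpG weights (y axis, points). Dashed lines mark 10 points; the 30 orange windows above the horizontal one persist, and the 82 windows at or below 0 have overlapping groups.

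Within most windows of the set, reads in DKO fell more on CpGs of low pooled level. To measure this, each CpG was given its level pooled over all 6 samples, and each sample's own reads were used as weights. The difference in this value between the groups had a median of -3.57 points in the 431 windows, against 0.0249 points over all tested windows, and was below 0 in 371 of the 431 (86.1%) against 49.0% of the tested windows. It reached -5 points or less in 189 windows of the set (43.9%) and in 2.68% of the tested windows. In the 30 windows that persist its median was -1.29 points, and 5 of them reached -5 points. The windows of the mirrored rule had a median of 3.65 points. The pooled level leans to the group with more reads at a CpG, so this value is not free of the difference itself.

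A placed promoter overlapped 11 of the 418 windows on chromosomes with such promoters (2.63%, against 2.80% of tested windows). Of these 11, 5 were of protein-coding genes, and 0 were among the 30 that persist. The windows of Wdr75, Patl2, 4930545L08Rik and Mchr1 could not be repeated. As 16.1% of the windows that could be repeated persisted, 0 among the few left carries little weight. Wdr75 encodes a nucleolar protein needed to make ribosomal RNA. Its window on chromosome 1, 45851001 to 45852000, had 75.0%, 62.5% and 54.3% in WT and 43.8%, 19.2% and 37.8% in DKO. The groups did not overlap there, yet the promoter printed above was almost unmethylated in both, at 0%, 5.56% and 9.09% in WT (4, 18 and 22 reads) and 9.18%, 0% and 5.77% in DKO (98, 91 and 52 reads). Promoter CpGs made up 14.3%, 37.5% and 37.1% of the window's reads in WT and 52.3%, 71.2% and 59.5% in DKO, so the low promoter weighed more in every DKO sample. The window's difference was -30.3 points, and -30.6 points with pooled CpG levels. Outside the promoter the window had 87.5%, 95% and 77.3% in WT and 79.5%, 66.7% and 83.3% in DKO, lower on average in DKO with overlapping ranges.

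Mchr1 encodes the receptor of melanin-concentrating hormone, and its window is on chromosome 15 at 81065001 to 81066000. The window went from 75.6% ± 3.44 to 50.6% ± 8.02 (SD, n = 3), and reads on the promoter CpGs went from 34.4% ± 11.1 to 60.6% ± 19.7 of its reads. Outside the promoter the levels were 88.9%, 100% and 92.9% in WT and 100%, 92.7% and 100% in DKO, and these ranges overlap. The promoter itself had 40%, 45.5% and 38.9% in WT and 12.5%, 12.5% and 30% in DKO, on 10 to 50 reads. At Slc5a1, the intestinal sodium and glucose cotransporter, the window on chromosome 5 at 33446001 to 33447000 went from 63.9% ± 3.74 to 45.8% ± 4.12 (SD, n = 3). With equal CpG weights its DKO mean was above the WT mean by 7.79 points. Tafa2 differed from these outside its promoter. It encodes a small secreted protein of the brain, and its promoter stood at 0% in all 6 samples. The window that holds part of it, on chromosome 10, 122700001 to 122701000, had 41.0% to 48.3% in WT and 14.7% to 30.7% in DKO. Outside the promoter its levels were 69.4%, 76.7% and 70% in WT and 44.2%, 34.4% and 60.7% in DKO, with no overlap. Reads on its promoter CpGs were 41.0%, 42.3% and 31.0% of the window's reads in WT and 30.7%, 57.3% and 54.8% in DKO, which overlap. The window's difference was -20.2 points, and -12.7 points with pooled CpG levels. The part of the spread of reads in this difference was not tested. With equal CpG weights its difference was -10.1 points and its gap 1.71 points, short of the rule. The promoter share of reads was higher on average in DKO in 9 of the 11 windows, and every DKO sample was above every WT sample in 3. Outside the promoter, every DKO sample stayed below every WT sample in 7 of the 11, and the groups overlapped in 4, those of Wdr75, Slc5a1, 4930545L08Rik and Mchr1. The like shares over all 20951 tested windows that overlap a placed promoter were not measured. These counts therefore do not tell whether the 11 windows differ from promoter windows in general.

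Within 1 kb of a placed start site, promoter windows included, lay 28 of the 418 windows (6.70%, against 5.47% of tested windows). Of these 28, 15 could be repeated with equal weights and 0 met the rule again. The DKO mean was then below the WT mean in 10 and above it in 5. The set lay farther from start sites than tested windows did: its median distance to a placed start was 59.6 kb, against 34.8 kb for tested windows and 24.2 kb under the mirrored rule. For the 30 windows that persist it was 119 kb, and 4 of them lay within 10 kb.

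In samples that took no part in the choice, windows chosen as lower had medians at or slightly above 0. The rule was applied to WT and DKO samples of 2 replicate numbers, and the difference was then read in the pair of the third number. With replicate 1 held out, 4374 windows were chosen with a median difference of -17.0 points in the samples that chose them, and the median in DKO replicate 1 minus WT replicate 1 was 0 points. With replicates 2 and 3 held out, 4959 and 5588 windows were chosen, and the held-out medians were 0.134 and 0.241 points. The held-out DKO sample was the lower one in 49.8%, 48.2% and 47.3% of the chosen windows, against 44.2%, 43.5% and 42.3% of all tested windows. A drop of 10 points or more was seen in 20.0%, 17.1% and 15.3% of the chosen windows and in 10.2%, 8.59% and 7.90% of the tested ones. A rise of 10 points or more was seen in 19.1%, 19.1% and 18.9% of the chosen windows and in 15.8%, 15.4% and 15.8% of the tested ones. Chosen windows thus fell outside 10 points more often on both sides.

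Windows chosen as higher by the same means did keep part of their difference. There were 23365, 23365 and 23745 of them, with medians of 21.2 to 21.7 points in the samples that chose them. In the held-out pair the medians were 9.09, 9.09 and 8.97 points, and the held-out DKO sample was the higher one in 72.8%, 74.0% and 73.7% of the windows, against 52.5%, 54.1% and 54.3% of all tested windows. The held-out values describe windows chosen on 4 samples, a wider set than the 431, and a held-out level rests on few reads in each window.

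**Figure D2:**
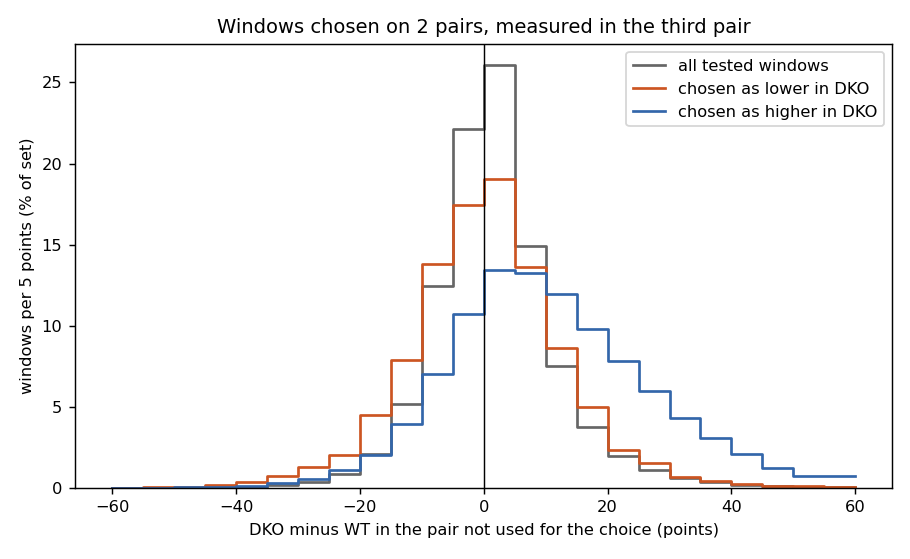
Difference DKO minus WT in the pair of samples not used for the choice (x axis, points; differences beyond 60 points are drawn in the last bin), as the share of each set per 5 points (y axis), summed over the 3 held-out pairs. Windows chosen as lower (orange) centre near 0 like all tested windows (grey) but are more spread, while windows chosen as higher (blue) are shifted to the right, with held-out medians near 9 points.

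The windows next to the set did not share its loss. The 402 tested windows directly beside it averaged 74.9% ± 0.421 for WT and 76.3% ± 0.370 for DKO samples (SD, n = 3), a difference of 1.44 ± 0.323 points (SE). By sample they stood at 75.2%, 75.0% and 74.4% in WT and 75.9%, 76.3% and 76.7% in DKO, so every DKO sample was the higher (exact permutation test, two-sided, p = 0.1; adjusted over 4 such tests 0.133). A design of 3 against 3 cannot give a lower p than 0.1. The 1442 windows 2 to 5 kb away differed by 1.59 ± 0.240 points in the same direction (exact permutation p = 0.1, n = 3). All other tested windows differed by 1.64 ± 0.180 points. Every DKO sample was below every WT sample in 13 of the 402 adjacent windows (3.23%), against 3.75% of all tested windows, and every DKO sample was above every WT sample in 33 (8.21%), against 9.05%. When reads were summed over the 402 windows in place of the mean of window levels, the difference was -1.08 points (exact permutation p = 0.4, n = 3). Of these windows 36 had over 3 times the median depth and held 30.4% of the reads, and without them the sum gave 0.794 points.

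Around the 30 persisting windows, 22 adjacent tested windows differed by 2.22 ± 1.37 points upwards (exact permutation p = 0.3, n = 3), and 73 windows 2 to 5 kb away by 2.39 ± 0.470 points (exact permutation p = 0.1, n = 3; both SE). Flanks within 3 kb could be measured for 23 of the 30 windows. Their DKO mean was above the WT mean in 19 and below it in 4. Among all other tested windows, taken singly, the DKO mean was below the WT mean in 41.7%.

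**Figure D3:**
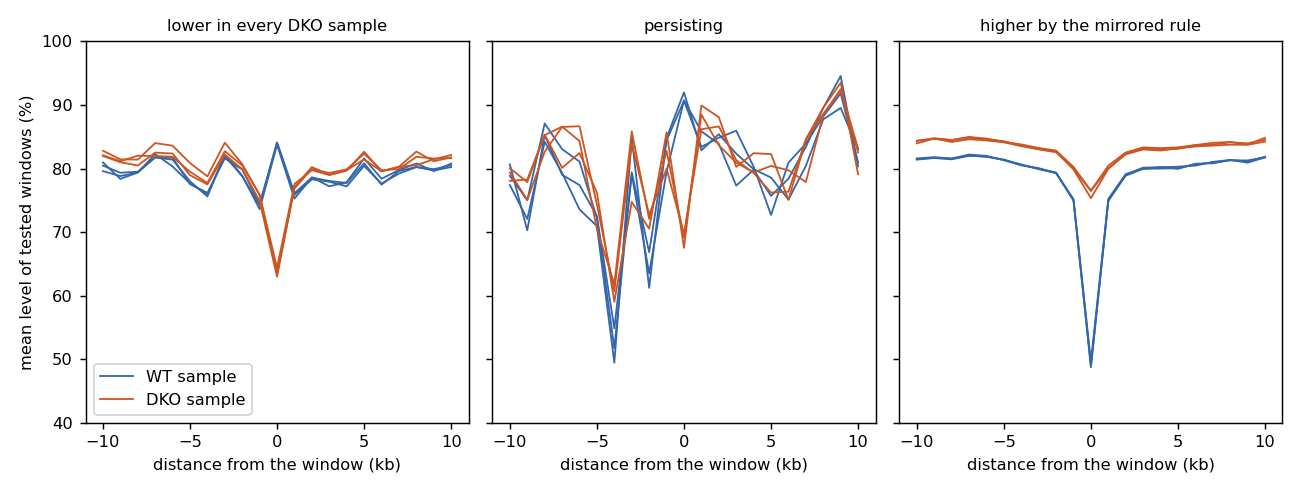
Mean level (y axis, %) of tested windows by distance in kb from windows of the set, from the 30 that persist and from windows of the mirrored rule, with 1 line per sample. The loss of the set (WT mean 84.0%, DKO mean 63.6%) is seen in the window itself; on its sides the lines of the groups lie close together or cross, with DKO slightly higher on average, whereas the gain of the mirrored rule is seen in the adjacent windows too; neighbours that met the same rule were left out.

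Few windows of the set lay next to one another. Of the 431, 2 (0.464%) were adjacent to another, and 6 (1.39%) had another within 5 kb, while 533 of the 7551 higher windows (7.06%) had an adjacent one and 1359 of the 7551 had one within 5 kb. The higher windows are far more numerous, so neighbours are more frequent by number alone. Of the other tested windows, 1.18% were adjacent to a higher window. Next to a window of the set lay 402 of the 774301 tested windows outside it. The 2 adjacent windows of the set form a single pair, and which set is the more scattered for its size was not tested. The adjacent pair was on chromosome 14 at 50066001 to 50068000, within the length of Slc35f4, a member of a solute carrier family. Its first window had 88.7%, 90.9% and 89.7% in WT and 62.5%, 65.7% and 69.4% in DKO, and its second had 79.5%, 81.0% and 78.7% in WT and 68.1%, 63.7% and 46.2% in DKO, with no overlap in either. In the set, 13 windows (3.02%) lay within 5 kb of a higher window, against 5.22% of the other tested windows. By chromosome, 9 of 34034 tested windows were in the set on chromosome 17, the lowest rate, and 36 of 46445 on chromosome 7, the highest. Only 3 windows (0.696%) had over 3 times the median depth, against 2.78% of the tested windows.

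The 30 windows that persist were mostly CpG-poor windows that were almost fully methylated in WT. They had 3 to 24 CpGs, with a median of 7, and 24 of them had 10 or fewer. Their reads per sample ran from 20 to 133. In 21 the WT mean was at least 90%, and in 4 every WT sample stood at 100%. DKO means were between 60 and 90% in 23 windows and under 50% in 4. The median difference was -22.2 points with each sample's own reads and -22.8 points with equal weights. None was adjacent to another of the 30. Of the 30, 9 lay within the length of a gene with a placed start, among them Lmo7, Opcml, Elavl4 and Tmem179.

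In each of these windows several CpGs had a lower DKO mean. Of 205 CpGs read in all samples, 173 had a lower DKO mean, 20 an equal one and 12 a higher one. The windows were chosen for lower DKO levels, which raises the number of lower CpGs. At 0 of them were all WT reads methylated and all DKO reads unmethylated. With equal weights and without the CpG with the largest drop, 26 of the 30 windows still had the groups apart, but only 8 still had a gap of 10 points. That CpG was picked for its drop, which lowers these counts.

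**Figure D4:**
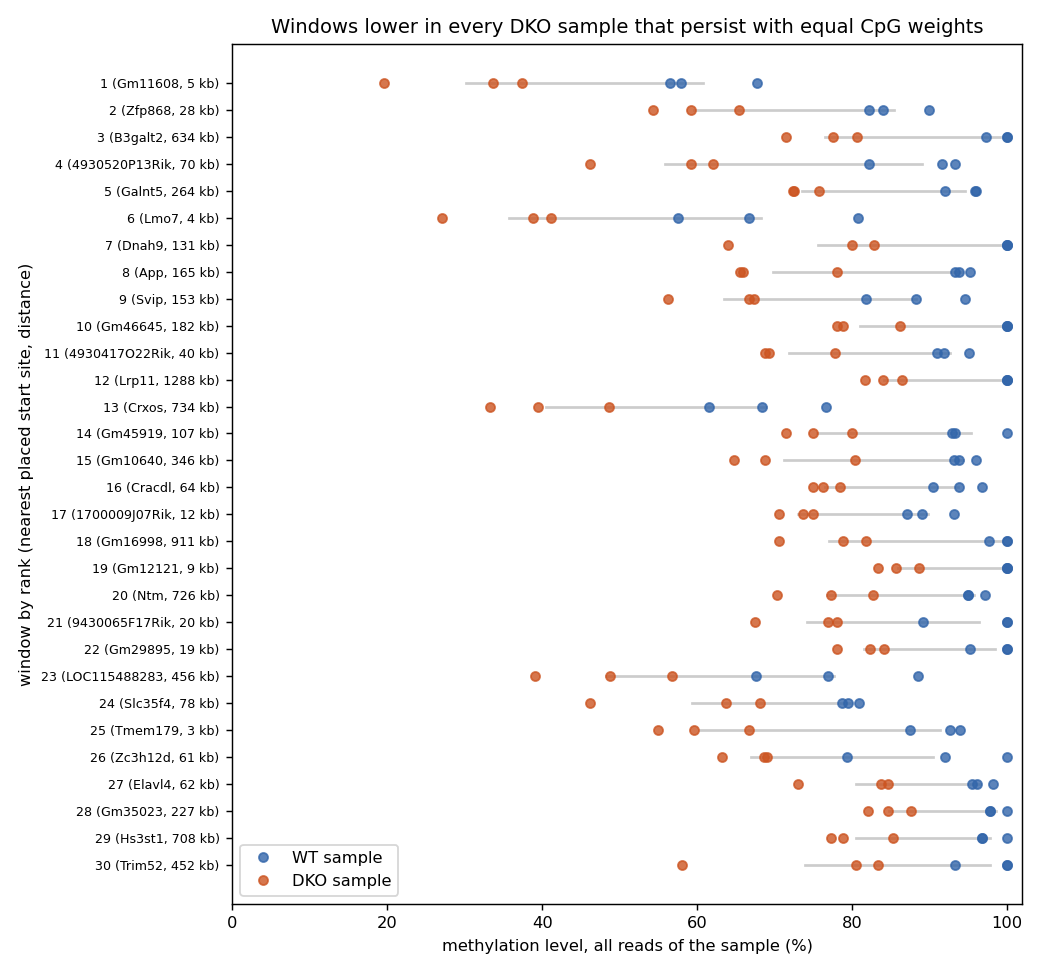
Methylation level in each sample (x axis, %; blue WT, orange DKO, grey lines join the group means) for the 30 windows that persist, ranked by the smaller of their 2 gaps and named by the nearest placed start site with its distance. The first window stands at 56.6% to 67.8% in WT and 19.6% to 37.4% in DKO, while most others start near 90 to 100% in WT.

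The 30 windows were ranked by the smaller of their gaps with own reads and with equal weights, and the first 20 are given. The first-ranked window lay upstream of Zdbf2, an imprinted gene that is active on the paternal copy and has a stretch upstream of its start that is methylated on that copy. It is on chromosome 1 at 63313001 to 63314000 and holds 24 CpGs, of which 19 were read in all samples, on 90 to 133 reads per sample. Its level was 57.9%, 67.8% and 56.6% in WT and 33.6%, 37.4% and 19.6% in DKO. The group means were 60.7% ± 6.13 and 30.2% ± 9.36 (SD, n = 3), and the difference with equal weights was -33.1 points. The counting interval (95%, Clopper-Pearson) was 46.2 to 66.5% for WT replicate 3 and 29.1 to 46.3% for DKO replicate 2, the pair with the smallest gap, so these intervals touch at their ends. Such intervals cover counting error only and take calls of 1 read as independent.

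Along this window the loss was larger on its first part. The 16 CpGs up to position 519, counted from 1 at the window's start, were all lower in DKO, with 158 of 243 reads methylated in WT (65.0%) and 56 of 240 in DKO (23.3%). Of the 8 CpGs from position 605 to 767, 6 were also lower in DKO. Their reads together were methylated at 45.6% of 79 in WT and 45.2% of 126 in DKO. The parting of the window at that point was chosen after its values were seen. The window begins 66.1 kb after one placed start of Zdbf2 and 6.84 kb before the start whose promoter is printed above. It also falls within the length of Gm11608, a long non-coding RNA on the opposite strand whose nearest placed start is 5.38 kb away. That promoter, with 38 CpGs, was unmethylated or nearly so in both groups, at 0%, 0% and 12.5% in WT (18, 90 and 16 reads) and 0%, 2.60% and 2.44% in DKO (74, 231 and 41 reads).

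The windows around it mostly went the other way. Of 16 other tested windows within 12 kb, 12 had a higher DKO mean and 4 a lower one, while 41.7% of all tested windows outside the set had a lower one. Every DKO sample was above every WT sample in 6 of the 16, and every DKO sample was below in 0. Over all tested windows these shares were 9.05% and 3.75%, so 0 of 16 below is near the general share. The window 6 kb before it, at 63307001, went from 47.3% ± 6.69 to 67.4% ± 6.40, and the window directly after it, at 63314001, from 44.7% ± 1.10 to 58.7% ± 8.82 (WT to DKO; SD, n = 3). The window directly before it, at 63312001, averaged 60.4% ± 12.2 for WT and 38.7% ± 11.7 for DKO, where DKO replicate 1 at 52.2% fell inside the WT range of 49.2% to 73.4%. A pair of neighbouring kilobases was thus lower on average within a stretch of intermediate methylation that was higher in most of its other windows.

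**Figure D5:**
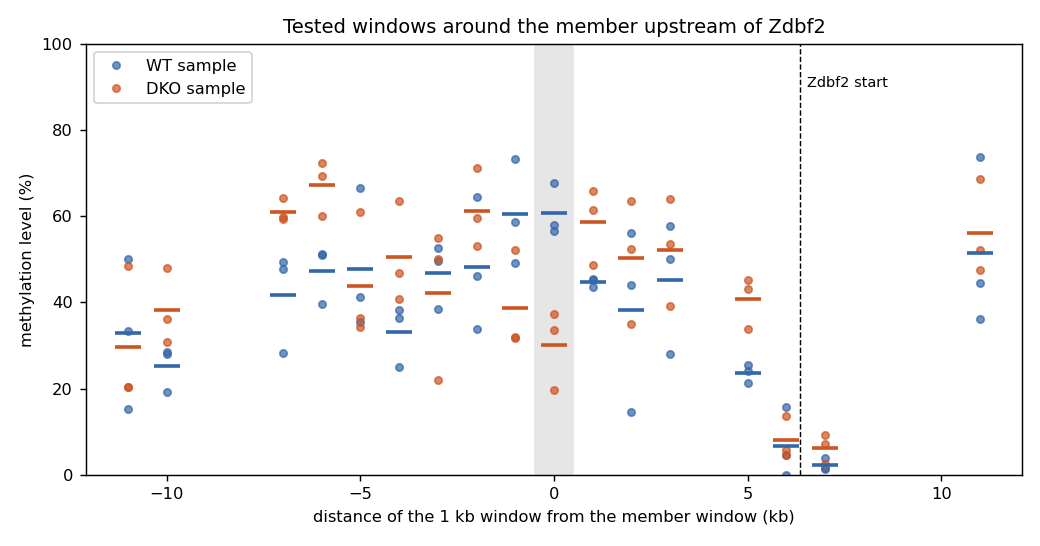
Levels (y axis, %) of tested 1 kb windows by distance in kb from the window upstream of Zdbf2 (grey band), with a point per sample and a bar at each group mean; the dashed line is the Zdbf2 start. WT lies above DKO in the grey window (60.7% against 30.2%) and below it in 12 of the 16 other windows.

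Lmo7 encodes a LIM-domain protein of cell junctions, and its window was the sixth in rank. It lies 3.86 kb after a placed Lmo7 start, on chromosome 14 at 102133001 to 102134000, with 8 CpGs and 26 to 73 reads. Its level was 80.8%, 57.5% and 66.7% in WT and 27.1%, 41.1% and 38.8% in DKO. All 6 of its shared CpGs were lower in DKO, and without the one with the largest drop the equal-weight gap was 15.7 points. Its 4 flanking windows had 89.9% in WT and 87.0% in DKO, so the window is a local dip in both groups that was deeper in DKO.

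A further window of intermediate WT level was on chromosome 7 at 15746001 to 15747000, with 4 CpGs and 26 to 38 reads. It had 61.5%, 76.7% and 68.4% in WT and 48.6%, 39.5% and 33.3% in DKO. All 4 CpGs were lower, and the difference with equal weights was -33.0 points. The only tested window within 3 kb had 89.5% in WT and 81.0% in DKO. On chromosome 8, 72120001 to 72121000 had just 3 CpGs and 20 to 49 reads. It had 90%, 82.1% and 84.0% in WT and 54.3%, 59.2% and 65.4% in DKO, with all 3 CpGs lower.

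Several of the first 20 windows were fully methylated in WT. The window on chromosome 11 at 66113001 to 66114000 had 100% in each WT sample (101 reads in all) and 63.9%, 82.9% and 80% in DKO (131 reads, 35 of them unmethylated). Chromosome 19, 15597001 to 15598000, had 100% in each WT sample and 78.8%, 78.1% and 86.2% in DKO. All 5 of its CpGs were lower, on 20 to 33 reads per sample. There the interval of WT replicate 3 reached down to 83.2% and that of DKO replicate 3 up to 96.1% (95%, Clopper-Pearson). At this depth the intervals of these samples thus overlap. Chromosome 10, 6021001 to 6022000, had 100% in WT and 86.5%, 81.7% and 84.0% in DKO. Its 9 shared CpGs were all lower. Chromosome 11, 34030001 to 34031000, had 100% in WT and 85.7%, 88.7% and 83.3% in DKO, and 4 of its 9 shared CpGs were lower and 0 higher.

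Others stood slightly below full methylation in WT. On chromosome 16, 85339001 to 85340000 lies 165 kb upstream of a start of App, the amyloid precursor gene. It had 93.3%, 93.8% and 95.2% in WT and 66.0%, 65.5% and 78.0% in DKO, and all 6 CpGs were lower. Its equal-weight gap was 19.4 points, and 16.7 points without the CpG with the largest drop. On chromosome 13, 70442001 to 70443000 had 93.3%, 82.1% and 91.7% in WT and 46.2%, 62.1% and 59.3% in DKO on 24 to 30 reads. On chromosome 9, 28493001 to 28494000, within the length of Opcml, a cell-adhesion gene, had 95%, 97.2% and 95% in WT and 70.3%, 77.3% and 82.8% in DKO. Without its most lowered CpG the equal-weight gap there was -0.208 points, so the groups overlapped.

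The other windows among the first 20 had DKO means of 63.4% to 77.1% and WT means of 88.2% to 99.2%. On chromosome 1 these were 144853001 to 144854000 (99.1% and 76.5%) and 37841001 to 37842000 (93.7% and 76.5%). Chromosome 2 held 57586001 to 57587000 (94.6% and 73.5%), and chromosome 16 held 12576001 to 12577000 (95.4% and 75.5%). On chromosome 7 there were 59414001 to 59415000 (88.2% and 63.4%) and 32293001 to 32294000 (94.3% and 71.3%). Chromosome 10 had 77343001 to 77344000 (89.8% and 73.1%) and 54707001 to 54708000 (99.2% and 77.1%), and chromosome 11 had 101773001 to 101774000 (92.6% and 71.9%). These are WT and DKO means of 3 samples each, and in every one of the windows the samples were apart by the rule. On chromosome 10 at 54707001 and chromosome 7 at 59414001, 1 CpG carried much of the equal-weight gap, which was 1.25 and 0.162 points without it.

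A gap of 20 points or more was found in 9 windows, 3 of them could be repeated with equal weights, and 2 of these met the rule again, on chromosome 12 at 113745001 and on chromosome 13 at 70442001. The first lies 3.37 kb after a placed start of Tmem179, a gene for a membrane protein, and had 92.7%, 87.5% and 93.9% in WT and 55.0%, 59.6% and 66.7% in DKO. Without its most lowered CpG the equal-weight gap was -1.19 points. Most of the 9 windows, 6, could not be repeated. The one on chromosome 7 at 46517001 had only 2 shared CpGs, and the others had too few reads on theirs. The largest gap, 28.8 points, was on chromosome 18 at 45262001 to 45263000, with 5 CpGs, 94.1%, 92.3% and 91.3% in WT and 40%, 62.5% and 61.9% in DKO. Its equal-weight gap was 11.7 points, on fewer than 20 reads in some sample.

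The third largest gap was on chromosome 11 at 95769001 to 95770000, within the length of B4galnt2, a glycosyltransferase gene. It had 80.4%, 80% and 79.6% in WT and 51.0%, 55.2% and 55.6% in DKO. Over its 7 shared CpGs the difference was -39.0 points, with a lowest WT level of 77.0% and a highest DKO level of 48.0%, on fewer than 20 reads in some sample.

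A window near a granule gene of myeloid cells was also among the 9. It is on chromosome 14 at 56720001 to 56721000 and begins 0.411 kb after the placed start of Ctsg, which encodes cathepsin G, a protease of neutrophil granules. With 15 CpGs it had 91.5%, 84.4% and 92.1% in WT and 62.8%, 63.2% and 55.6% in DKO, with no overlap. Over its 8 shared CpGs the difference was -25.2 points and the gap 5.07 points, with too few reads for the repeat. On chromosome 3, 50335001 to 50336000 had 100%, 100% and 95.5% in WT and 72.1%, 69.8% and 70.8% in DKO. Over its 4 shared CpGs the difference was -1.67 points and the gap 0 points.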

How the data were processed

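WT and Tet2/3 DKO LSK cells (3 samples each) were grouped by the labels' titles. The authors deposited 1 table of counts per CpG, methylated reads and all reads in each sample, neither normalised nor pooled. The submitters' processing notes name BSMAP 2.74 and the build mm9. The sources used here do not state filters, duplicate removal or read trimming. A methylated count was missing only where 0 reads were listed, and 0 columns of other samples were present. Coordinates count from 1.

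Counts were summed over 1 kb windows (Python 3.11.15, numpy 2.4.6, scipy 1.17.1). Gaps, equal-weight levels and held-out differences are descriptions. Single values per sample were compared by two-sided exact permutation tests. The windows named in full follow a rule: the 20 persisting windows with the largest value of the smaller of their gaps with own reads and with equal weights. The windows with a gap of 20 points, the promoter windows and those within 1 kb of a start site were chosen after their values were seen. The members and most measures were chosen with earlier results of these data known; the spread-of-reads value and the promoter placement were added later. Of the placed promoters, 17 whose shift between builds was out of step with that of their neighbours were dropped; chromosome 18 had 0 promoters to place. A window was said to lie within a gene when it fell downstream of a placed start by less than the remaining RefSeq length. The rule was tested on simulated data.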

Additional observations from a re-analysis of the deposited data

How the results depend on the processing

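Numbers of windows depended on the minimum of reads, the gap and the samples used, while the mirrored rule took more windows in every setting run. Against 431 lower and 30 persisting windows, a minimum of 10 reads gave 2060 and 294, and a minimum of 40 reads gave 67 and 1. A gap of 5 points gave 3478 and 533, and a gap of 20 points gave 9 and 0. Windows of 500 bp gave 265 lower windows. Leaving out 1 sample gave 1677 to 2663 lower and 249 to 446 persisting windows, as fewer samples have to be apart. Without the CpG with the largest drop 9 windows met the equal-weight rule. The higher windows were 5.01 to 162 times as many as the lower ones over these settings. A minimum of 6 CpGs, shifted windows, 2 kb windows, windows without high depth and weights by the lowest read number kept both counts within 1.5 times. The difference in the windows next to the set was reversed, to -1.08 points, when reads were summed (two-sided exact permutation p = 0.4, n = 3). The setting without high-depth windows, chosen after seeing the data, gave 0.794 points there. In all other settings run for the 4 neighbour values the DKO mean stayed higher.

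Same-numbered samples of the groups share only a number: the correlations of their deviations from the group means over tested windows were 0.00337, 0.00359 and 0.00332 for numbers 1 to 3, each the highest of its sample's correlations but near 0. With the replicate block, DKO at least 10 points below WT in each same-numbered pair, 1539 windows were lower and 147 of them persisted, against 15435 higher. For the neighbour values the block gave the same differences, with an exact sign-flip p of 0.25 or more, the smallest that 3 pairs allow being 0.25.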
